A study of Arabidopsis thaliana with 24 samples.

Results

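The 45 genes described here are the subunits and assembly factors of photosynthesis that the Arabidopsis plastid genome encodes and that the array measures with a probe set of their own. They were taken by symbol, as the probe sets that name 1 gene whose symbol starts with psa, psb, pet, atp, ndh, rbc or ycf followed by a capital letter or a digit, and they make up 45 of the 22746 probe sets tested. All 45 lie in the plastid genome of the TAIR10.1 gene table under the same symbol. They comprise 5 genes of photosystem I, 15 of photosystem II, 6 of the cytochrome b6f complex, 6 of the ATP synthase, 10 of the NADH dehydrogenase-like (NDH) complex, the large subunit of Rubisco and 2 ycf assembly factors. Probe sets for ycf1, ycf2 and ndhB, which name a pair of gene copies each, fall outside the rule.

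Chloroplasts carry a small genome of their own, which encodes the reaction centre proteins of both photosystems and part of each other complex of the thylakoid membrane, while the nucleus encodes the remaining subunits, the antenna proteins and the small subunit of Rubisco. Plastid genes are transcribed by a bacterial type and by phage type RNA polymerases, mostly as long transcripts of several genes that are then cut and trimmed, so that the RNA of neighbouring genes can differ in amount. Mature plastid RNA carries no stable poly(A) tail, and a method that primes on poly(A) records it unevenly. In the stem, chloroplasts are found in the cortex, and the starch sheath, its innermost layer, holds starch-filled plastids.

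The study followed the formation of interfascicular cambium, the dividing layer between the vascular bundles, in wild-type Arabidopsis stem pieces. Plants had been raised for 3 weeks in short days before long days, and 1.5 cm pieces were cultured with or without NAA, a synthetic auxin. Tissue was taken by laser capture from 5 µm sections, its RNA went through a pair of amplification rounds, and each of 24 Affymetrix ATH1 arrays gives 1 sample. The 8 groups of 3 arrays were starch sheath before culture (untreated), sheath after 2 days on NAA, sheath after 2 days on MS medium without NAA, interfascicular cambium after 5 days on NAA, sheath after 5 days on MS medium, and the rest of the stem without sheath and bundles (called stem here) before culture and after 2 and 5 days on NAA. No stem was cultured without NAA, so that NAA and time in culture cannot be told apart there. The replicates are called biological, the number of plants behind each is not given, and the labels used here state no dose of NAA.

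Values are log2 signals, and a difference of 1 is a factor of 2. Each gene is compared only with itself across groups, since the probe sets of different genes differ in brightness. In a captured tissue, fewer cells of a type and less RNA per cell cannot be told apart. Of the tissue markers, JKD of the starch sheath stood at 3.21, 4.26 and 4.48 in untreated sheath, against 2.798, 3.01 and 3.12 in untreated stem. It is the 1 of 3 listed sheath markers matched to a probe set naming 1 gene, and no xylem, epidermis or green cortex marker on the list was matched to one, so that those tissues were not checked here. On 3 arrays (untreated sheath replicates 2 and 3, untreated stem replicate 3) the values were compressed. Their SD over all probe sets was 0.9553 to 1.078 against 1.216 to 1.574 on the other 21 arrays, and the median of the 45 genes was 3.26 to 3.42 against 2.50 to 3.34. Untreated sheath stands for 1 array where these 3 are left out. JKD differed between untreated sheath and stem by +1, which did not pass (adjusted p 0.159, limma), and by +0.3 without these 3 arrays. Calls of the 45 genes made against untreated tissue are given with them, and calls or differences also without them. The comparison gene lists are given only with them.

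The signals of the 45 genes ran from dim to bright. The median of all values on the arrays was 3.09, and 17 of the 45 genes stayed below it in every group. The other 28 reached it in at least 1 group, as did 65.7% of all probe sets. A group mean above 6 was reached by 11 genes, namely psaB, psbA, psbC, psbF, psbI, psbJ, psbL, petA, atpB, atpE and ndhC, and by 12.2% of all probe sets. Every complex but Rubisco and the ycf pair had at least 1 such gene.

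The lowest and highest group means of the genes were not spread evenly over the groups. The stem after 5 days on NAA was the low point for 22 of the 45 genes, whereas 8.34% of all probe sets had their lowest mean there. Of the 11 bright genes, 9 were lowest in that group, the exceptions being psbC and psbL. These 11 were picked by a group mean above 6, and no share of all probe sets so picked was worked out. The high points lay in the sheath, with 21 genes highest in untreated sheath (32.5% of all probe sets) and 9 highest after 2 days on NAA (10.7%). None of the 45 genes was highest in the 5-day cambium (10.2% of all probe sets). None was lowest in untreated sheath (16.4%) or in sheath after 2 days on medium (8.63%). Without the 3 compressed arrays 18 genes were lowest in 5-day stem (8.16% of all probe sets) and 14 in untreated stem (14%). Untreated sheath, then 1 array, was highest for 24 genes (17.3%) and lowest for 4 (24.4%). These are counts of means, without a test, and genes of 1 transcript are not independent.

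**Figure D1:**
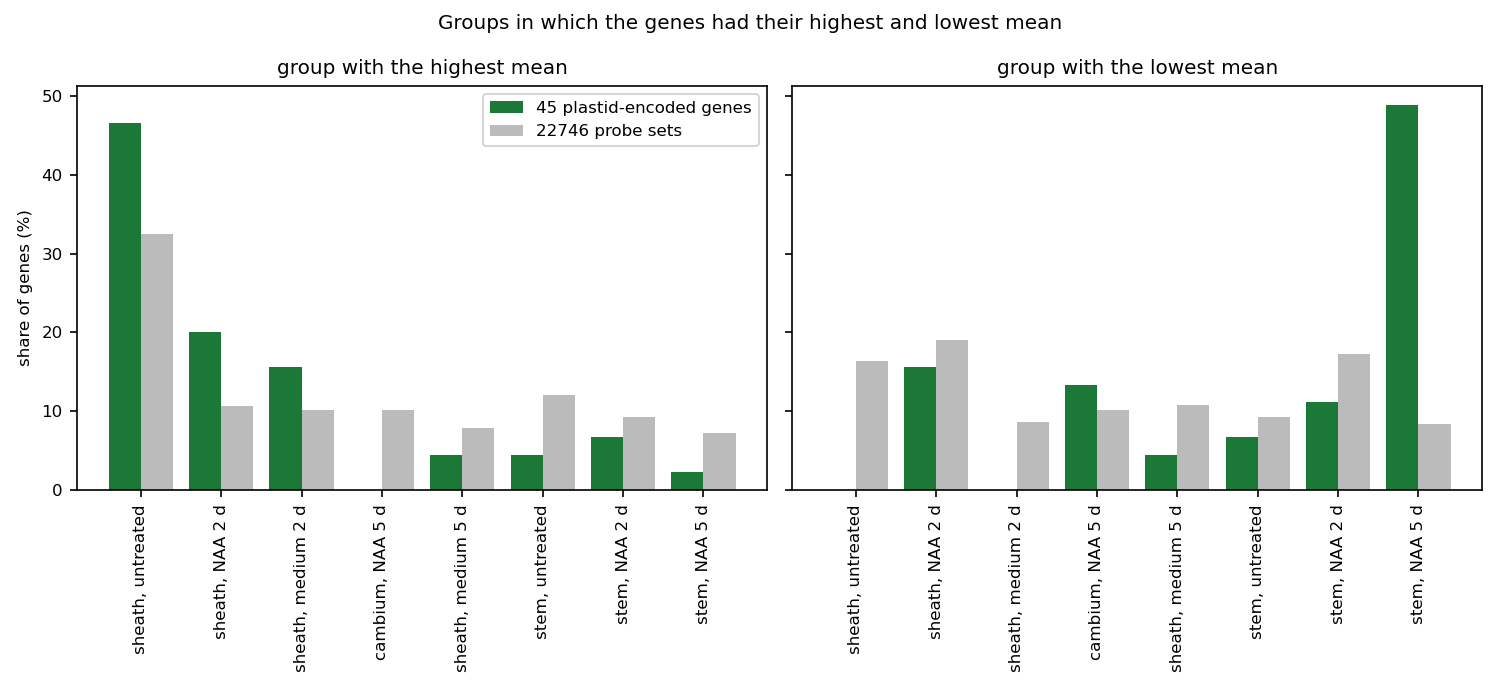
Share of genes (%) with their highest mean (left) and lowest mean (right) in each group, for the 45 plastid-encoded genes and for all 22746 probe sets. The green bar for lowest means is tallest for stem after 5 days on NAA, where 22 of the 45 genes lie, against 8.34% of all probe sets.

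**Figure D2:**
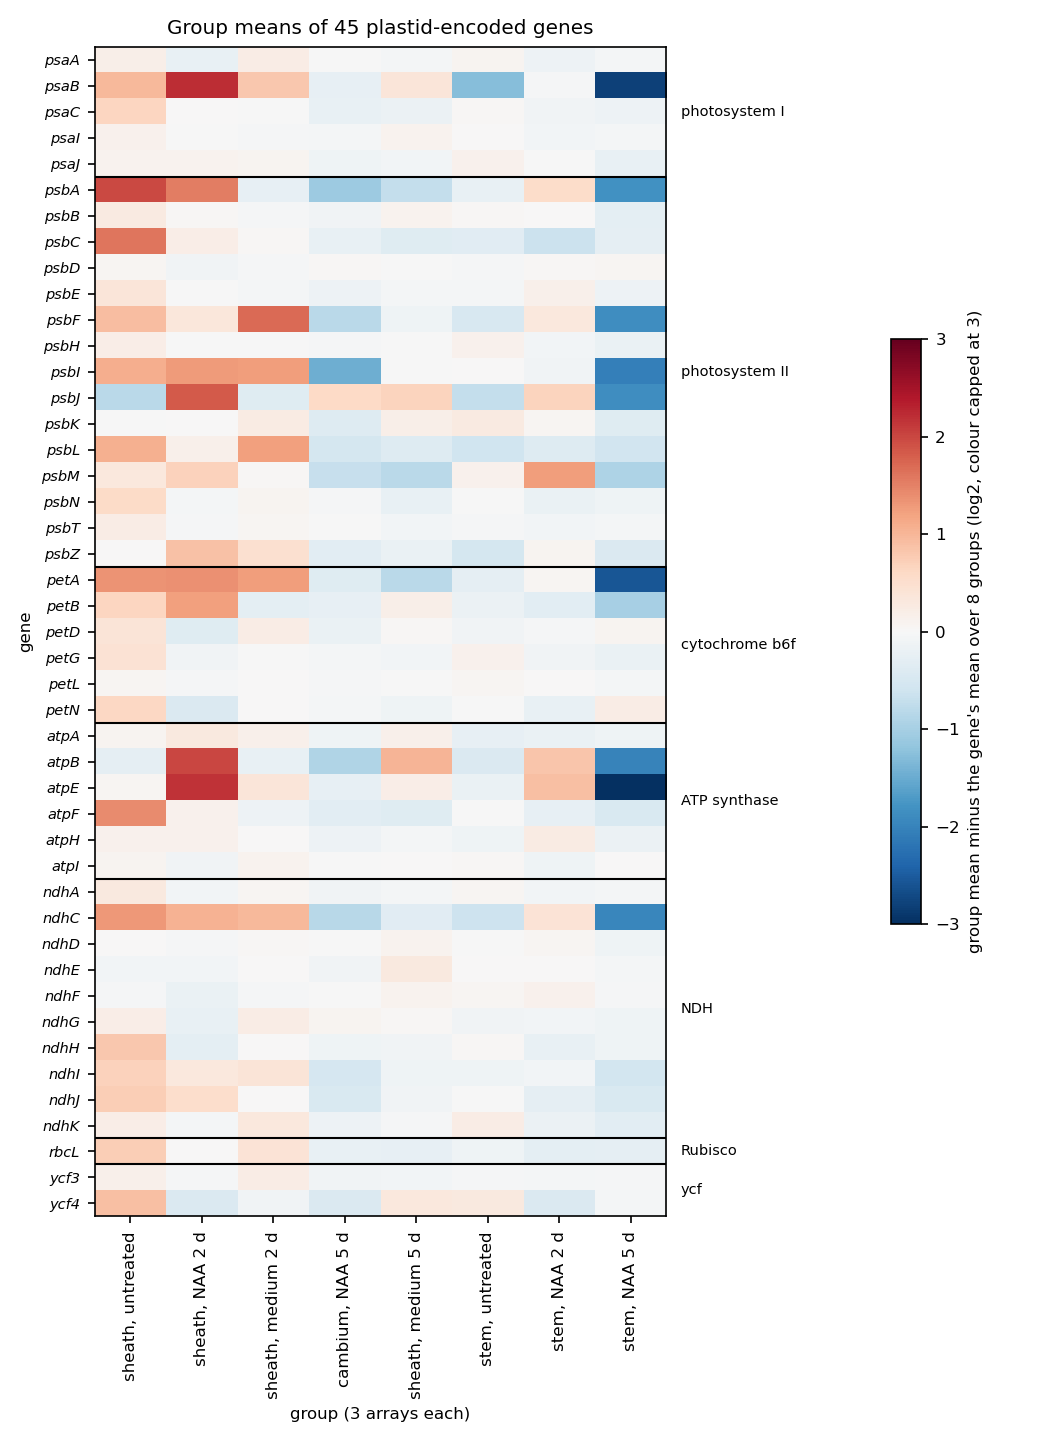
Group mean of each of the 45 genes minus the mean of its 8 group means (log2), with genes in rows by complex and groups in columns. The strong colours fall on a few genes per complex (psaB, psbA, psbF, psbI, psbJ, petA, atpB, atpE, ndhC), which are blue in stem after 5 days on NAA, while most other rows are pale.

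Over the 8 groups, 10 of the 45 genes (22.2%) differed by limma's moderated F-test with Benjamini-Hochberg adjustment over all probe sets, against 13.7% of all probe sets. They were psaB, psbC, psbF, psbI, psbJ, psbL, petA, atpB, atpE and atpF. By complex that is 1 of 5 genes of photosystem I, 5 of 15 of photosystem II, 1 of 6 of cytochrome b6f, 3 of 6 of the ATP synthase and 0 of 10 of NDH. The difference in psaB, psbI, psbL and atpE passed in each of the 24 fits without 1 array and under every other setting tried, with adjusted p of at most 0.0155. Each of the other 6 lost it under at least 1 of these. Without the 3 compressed arrays 15 genes passed, and psbC no longer did.

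**Figure D3:**
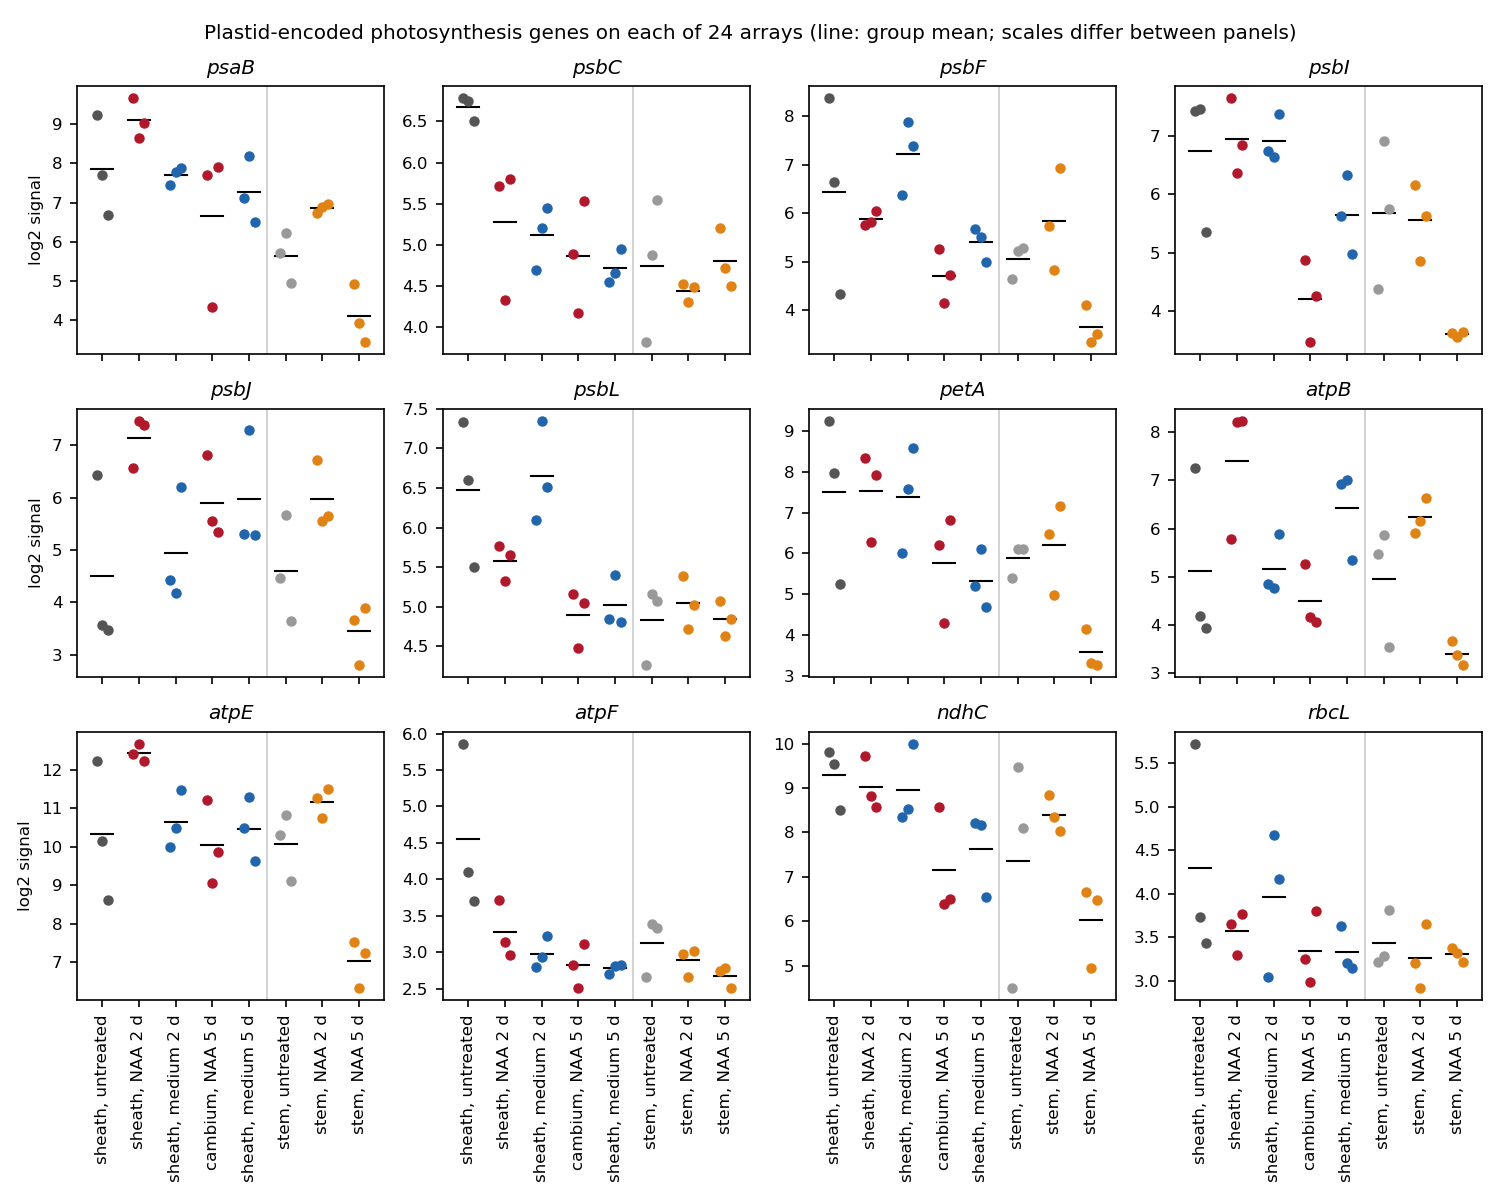
Log2 signal on each array for the 10 genes whose groups differed and for ndhC and rbcL, with a line at each group mean and a vertical line between sheath or cambium and stem. In atpE the 3 arrays of stem after 5 days on NAA (6.33 to 7.51) lie below all others, and in untreated sheath the 3 arrays of most genes lie far apart.

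Among the photosystem I genes, psaB, which encodes a large reaction centre protein, varied most. In the sheath psaB stood at 9.23, 7.69 and 6.68 before culture, at 9.66, 8.65 and 9.02 after 2 days on NAA and at 7.697, 4.33 and 7.92 in the 5-day cambium. On medium it stood at 7.45, 7.78 and 7.88 at 2 days and 7.11, 8.18 and 6.496 at 5 days. In stem the values were 5.71, 6.23 and 4.95 before culture, 6.74, 6.88 and 6.95 at 2 days on NAA and 4.91, 3.94 and 3.45 at 5 days. Stem was thus below sheath at 0 and 2 days without overlap, and the 5-day stem arrays lay below those of all other groups except 1 cambium array at 4.33. The F-test gave an adjusted p of 0.00319 (limma). The partner subunit psaA had group means of 3.01 to 3.46. That is near the median of all values (3.09), so whether psaA followed psaB could not be seen. The iron-sulphur subunit psaC ranged over 2.38 to 3.23, and the small subunits psaI and psaJ stayed at 2.39 to 2.595 and 2.28 to 2.64.

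In photosystem II the reaction centre protein D1, encoded by psbA, had group means of 3.23 to 7.03, but its untreated sheath arrays alone spread over 11.10, 6.34 and 3.65. Its partner D2, psbD, stayed at 2.49 to 2.66, and the core antenna protein CP47, psbB, at 2.45 to 3.004. The smallest p of the complex was that of psbI, a small subunit of the reaction centre. In the sheath series psbI stood at 7.42, 7.46 and 5.36 before culture, 7.65, 6.36 and 6.85 after 2 days on NAA and 4.88, 3.48 and 4.25 in the 5-day cambium. Its values on medium were 6.74, 6.64 and 7.38 at 2 days and 5.63, 6.33 and 4.98 at 5 days. In stem they were 4.38, 6.91 and 5.74 before culture, 6.16, 4.86 and 5.64 at 2 days and 3.63, 3.56 and 3.65 at 5 days. The 5-day stem arrays and 1 cambium array were the lowest. The cambium arrays lay below all sheath arrays and overlapped those of untreated and 2-day stem, and the 5-day stem arrays differed by less than 0.1 among themselves (adjusted p of the F-test 0.00289, limma).

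The second core antenna protein, CP43 (psbC), had its highest arrays in untreated sheath. It stood at 6.78, 6.75 and 6.502 there, at 5.72, 4.33 and 5.796 after 2 days on NAA and at 4.89, 4.17 and 5.53 in cambium. Sheath on medium gave 4.69, 5.21 and 5.45 at 2 days and 4.54, 4.66 and 4.95 at 5 days, and stem gave 3.82, 4.87 and 5.54 before culture, 4.52, 4.31 and 4.48 at 2 days and 5.21, 4.71 and 4.503 at 5 days. Untreated sheath lay above all arrays of every other group, and the arrays of the other 7 groups lay between 3.82 and 5.80 (adjusted p of the F-test 0.0147, limma).

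The genes psbE, psbF, psbL and psbJ form 1 transcription unit. The products of psbE and psbF bind the haem of cytochrome b559, and psbL and psbJ encode small subunits of the core. The psbE probe set stayed at 2.83 to 3.35, while psbF ranged over 3.65 to 7.21. In the sheath psbL stood at 7.33, 6.61 and 5.501 before culture, 5.76, 5.32 and 5.65 after 2 days on NAA and 5.15, 4.48 and 5.04 in cambium. It stood at 6.09, 7.35 and 6.51 after 2 days on medium and at 4.85, 5.398 and 4.81 after 5 days. Stem values were 4.27, 5.16 and 5.07 before culture, 5.38, 4.72 and 5.02 at 2 days and 5.07, 4.63 and 4.85 at 5 days. For psbL the arrays of untreated sheath and of 2 days on medium lay above all arrays of cambium and stem, whereas those of 2 days on NAA and of 5 days on medium overlapped with stem (adjusted p of the F-test 0.00426).

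Its neighbour psbJ ran otherwise. In the sheath psbJ stood at 6.43, 3.57 and 3.47 before culture, at 6.57, 7.46 and 7.39 after 2 days on NAA and at 6.82, 5.55 and 5.35 in cambium. On medium it stood at 4.43, 4.17 and 6.21 at 2 days and 5.303, 7.295 and 5.29 at 5 days, and in stem at 4.47, 5.67 and 3.65 before culture, 6.71, 5.55 and 5.64 at 2 days and 3.66, 2.804 and 3.88 at 5 days. The 2-day NAA sheath was highest on average, the 5-day stem lowest, and 1 of the 3 untreated sheath arrays stood nearly 3 above the other 2 (adjusted p of the F-test 0.0351, limma).

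The remaining genes named for photosystem II had lower signals. Group means of psbM ranged over 2.74 to 4.91 and those of psbZ over 2.9 to 4.33. They were 2.49 to 3.29 for psbN, 2.47 to 3.12 for psbK, 2.59 to 2.99 for psbH and 2.38 to 2.68 for psbT. None of these 6 passed the F-test.

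Cytochrome f, the electron-donating subunit of the cytochrome b6f complex, is encoded by petA. It stood at 9.25, 7.99 and 5.26 in untreated sheath, 8.35, 6.29 and 7.93 in sheath after 2 days on NAA and 6.202, 4.28 and 6.83 in cambium. On medium petA stood at 6.01, 7.58 and 8.58 at 2 days and 5.19, 6.11 and 4.68 at 5 days. In stem it stood at 5.399, 6.12 and 6.12 before culture, 6.47, 4.97 and 7.15 at 2 days and 4.14, 3.32 and 3.27 at 5 days. Only the 5-day stem arrays lay apart, below all others (adjusted p of the F-test 0.0346, limma, lost in 10 of 24 fits without 1 array). Cytochrome b6, petB, ranged over 3.24 to 5.47, with 1 untreated sheath array far above the rest, and the small subunits petG and petL stayed at 2.24 to 2.88 and 2.12 to 2.24.

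Subunit IV, petD, moved within narrow limits of 2.58 to 3.33. Its sheath values were 3.38, 3.36 and 3.26 before culture, 2.701, 2.497 and 2.53 after 2 days on NAA and 2.75, 2.53 and 2.94 in cambium. On medium petD gave 3.02, 3.52 and 2.96 at 2 days and 2.895, 2.75 and 3.29 at 5 days. In stem it gave 2.68, 2.87 and 2.997 before culture, 2.804, 3.21 and 2.75 at 2 days and 2.92, 3.28 and 2.87 at 5 days. The 2-day NAA sheath arrays were below the untreated ones, at a signal close to the median of all values.

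The small subunit petN, with group means of 3.18 to 4.22, stood at 3.26, 4.48 and 4.899 in untreated sheath, 3.29, 2.97 and 3.27 after 2 days on NAA and 3.34, 3.16 and 4.14 in cambium. The arrays on medium gave 3.48, 3.84 and 3.55 at 2 days and 3.51, 3.24 and 3.64 at 5 days, and stem gave 3.52, 3.46 and 3.75 before culture, 3.298, 3.34 and 3.52 at 2 days and 4.32, 3.43 and 3.73 at 5 days. Its 2 highest values were those of the 2 compressed arrays of untreated sheath.

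The ATP synthase held the gene that moved most. Its epsilon subunit, encoded by atpE, regulates the catalytic head of the enzyme. In the sheath atpE stood at 12.23, 10.14 and 8.6 before culture, at 12.4, 12.67 and 12.23 after 2 days on NAA and at 11.2, 9.05 and 9.85 in cambium. On medium it stood at 9.98, 10.49 and 11.46 at 2 days and 10.49, 11.29 and 9.63 at 5 days. Stem arrays gave 10.29, 10.81 and 9.09 before culture, 11.27, 10.73 and 11.49 at 2 days and 7.51, 6.33 and 7.22 at 5 days. The 5-day stem was below all 21 other arrays, and the 2-day NAA sheath at or above all of them (adjusted p of the F-test 0.00211, limma). The catalytic beta subunit, atpB, lies in the same transcript and had group means of 3.41 to 7.41, lowest in 5-day stem and highest in 2-day NAA sheath.

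A different course was that of atpF, which encodes a subunit of the stalk. It stood at 5.86, 4.1 and 3.71 in untreated sheath, 3.72, 3.15 and 2.97 after 2 days on NAA and 2.83, 2.52 and 3.12 in cambium. On medium atpF stood at 2.79, 2.93 and 3.23 at 2 days and 2.71, 2.81 and 2.82 at 5 days, and in stem at 2.66, 3.38 and 3.33 before culture, 2.98, 2.67 and 3.02 at 2 days and 2.75, 2.78 and 2.52 at 5 days. Untreated sheath was high, most of all on replicate 1, which is not a compressed array (adjusted p of the F-test 0.0199). The catalytic alpha subunit atpA and the membrane subunits atpH and atpI had low signals, at 2.41 to 2.95, 2.58 to 2.995 and 2.14 to 2.38.

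None of the 10 NDH genes passed the F-test. This complex passes electrons from ferredoxin back to the plastoquinone pool. The smallest p was that of ndhC (0.0272 before adjustment, limma), which stood at 9.81, 9.54 and 8.51 in untreated sheath, 9.72, 8.82 and 8.56 after 2 days on NAA and 8.56, 6.38 and 6.503 in cambium. On medium ndhC stood at 8.34, 8.53 and 9.995 at 2 days and 8.204, 8.16 and 6.53 at 5 days, and in stem at 4.503, 9.48 and 8.11 before culture, 8.84, 8.34 and 8.03 at 2 days and 6.66, 4.94 and 6.48 at 5 days. It was lower in 5-day than in 2-day stem without overlap.

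The gene ndhJ, co-transcribed with ndhC, had group means of 2.86 to 4.06. It gave 5.05, 3.39 and 3.73 in untreated sheath, 4.13, 3.53 and 3.84 after 2 days on NAA and 3.04, 2.59 and 2.95 in cambium. The values of ndhJ on medium were 3.81, 2.88 and 3.28 at 2 days and 2.68, 3.83 and 3.09 at 5 days, and in stem 2.92, 3.15 and 3.85 before culture, 3.097, 2.98 and 3.06 at 2 days and 2.79, 2.82 and 2.99 at 5 days. Every cambium array was below every untreated sheath array. The subunit ndhK of the same transcript ranged over 2.94 to 3.57.

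For ndhH the values were 2.27, 4.01 and 4.34 in untreated sheath, 2.53, 2.29 and 2.47 after 2 days on NAA and 2.54, 2.42 and 2.84 in cambium. It gave 2.56, 2.75 and 2.91 at 2 days and 2.64, 2.38 and 2.85 at 5 days on medium, and 2.46, 2.496 and 3.34, 2.34, 2.48 and 2.704 and 2.66, 2.66 and 2.48 in stem before culture, at 2 days and at 5 days. The high values of ndhH were those of the 3 compressed arrays. Group means were 2.77 to 4.01 for ndhI and 2.59 to 3.04 for ndhG. They were 2.48 to 2.88 for ndhA and 2.44 to 2.67 for ndhD, and lower still at 2.29 to 2.701 for ndhE and 2.16 to 2.49 for ndhF.

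The large subunit of Rubisco, rbcL, the enzyme that fixes carbon dioxide, gave a low signal on these arrays. It stood at 5.72, 3.74 and 3.43 in untreated sheath, 3.65, 3.29 and 3.76 after 2 days on NAA and 3.25, 2.99 and 3.802 in cambium. On medium rbcL stood at 3.05, 4.68 and 4.17 at 2 days and 3.63, 3.21 and 3.15 at 5 days, and in stem at 3.22, 3.28 and 3.81 before culture, 3.21, 2.92 and 3.65 at 2 days and 3.38, 3.32 and 3.21 at 5 days. Apart from 1 untreated sheath array at 5.72, no array was above 4.68.

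The assembly factors ycf3 and ycf4 both serve photosystem I. The values of ycf3 were 2.57, 2.94 and 2.66 in untreated sheath, 2.67, 2.52 and 2.41 after 2 days on NAA and 2.49, 2.32 and 2.56 in cambium. On medium ycf3 gave 2.94, 2.697 and 2.71 at 2 days and 2.54, 2.35 and 2.56 at 5 days, and in stem 2.37, 2.42 and 2.77 before culture, 2.499, 2.46 and 2.57 at 2 days and 2.59, 2.35 and 2.63 at 5 days. It stayed below the median of all values in each group, and ycf4 ranged over 3.31 to 4.65.

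The stem after 5 days on NAA was compared with the stem after 2 days to ask how the surrounding tissue changed as the cambium formed. The single call was atpE, which fell by 4.14 ± 0.718 on the log2 scale (SE, n = 3 arrays each), a factor of 17.6, with an adjusted p of 0.00524 (limma, Benjamini-Hochberg over all probe sets). Lower calls made up 0.339% of all probe sets and calls in either direction 0.857%. Beside atpE, 14 other genes lay lower without overlap between the arrays, 15 of 45 (33.3%) in all, against 10.4% of all probe sets, and 0 lay higher without overlap, against 12.2%. These 14 did not pass the test: atpB differed by -2.83 ± 0.8 (adjusted p 0.137), psaB by -2.76 ± 0.748 (0.118), petA by -2.62 ± 0.89 (0.268), psbJ by -2.52 ± 0.764 (0.185) and psbI by -1.94 ± 0.604 (0.206). The median of the 45 genes was -0.17, against 0.03 over all probe sets. The call in atpE passed under every other setting tried (log2 -3.64 to -4.39) and in all 6 fits without 1 array, with an adjusted p of at most 0.0429. Other settings called more of the 45 genes, all lower, with 9 under array weights and 6 when only these arrays were fitted. There were 3 each without the compressed arrays and with the GAPDH 3' minus 5' signal as a covariate. The GAPDH 5' signal was 2.42 to 2.90 over the arrays, below the median of all values, so the covariate mostly follows the 3' signal. The phloem marker CLE44, the 1 of 4 listed phloem markers matched to a probe set, rose in the same comparison. It stood at 6.801, 6.89 and 8.62 at 5 days against 4.48, 5.51 and 3.65 at 2 days (+2.89 ± 0.643, adjusted p 0.0357). Its part in the fall of atpE was not tested.

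Against untreated stem, the 5-day stem showed the same gene lower. The log2 difference in atpE was -3.04 ± 0.718 (adjusted p 0.02, limma), and 1 of 45 genes was called lower, against 1.63% of all probe sets. Calls in either direction made up 4% of all probe sets. The call was lost without untreated stem replicate 2 (adjusted p 0.091), without 5-day replicate 2 (0.107) and without 5-day replicate 3 (0.0643), and without the 3 compressed arrays it was -3.53 (0.00142). Array weights gave 15 calls and the GAPDH covariate 3, of which 1 was higher. CLE44 rose here too (+2.52 ± 0.643, adjusted p 0.032), and without the compressed arrays it stood at +1.88 (0.103). Its part was not tested. After 2 days on NAA 0 of 45 genes were called in stem, and 0 had an unadjusted p under 0.05, against 3.23% of all probe sets called by limma, and 0 were called without the compressed arrays.

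The sheath after 2 days on NAA was compared with untreated sheath, and 6 of 45 genes were called (13.3%), against 11.7% of all probe sets. One rose, psbJ, by 2.65 ± 0.764 on the log2 scale (adjusted p 0.0322), and 5 fell, against 7.47% higher and 4.28% lower of all probe sets. The falls were -1.40 ± 0.409 for psbC (adjusted p 0.0343), -1.28 ± 0.369 for atpF (0.0322), -1.11 ± 0.354 for ndhH (0.0485), -1.04 ± 0.319 for petN (0.0415) and -0.76 ± 0.177 for petD (0.0109). The difference in atpE, +2.11 ± 0.718, did not pass (0.0615). Of these 6, only atpF passed when the 3 compressed arrays were left out, which leaves 1 untreated sheath array whose spread is taken from the other groups, and 7 of the 45 genes were called in that fit. There atpF fell by 2.58 (adjusted p 7.7e-05), while psbC stood at -1.5 (0.175), petD at -0.80 (0.111), psbJ at +0.71 (0.913), petN at -0.09 (0.991) and ndhH at +0.16 (0.918). With the GAPDH covariate 0 of the 6 passed. The differences were then -1.55 for atpF, -0.53 for psbJ, -0.37 for petD, -0.31 for psbC, -0.02 for petN and +0.30 for ndhH. The GAPDH 3' minus 5' signal was 5.515 to 7.427 on the 18 cultured arrays against 3.93 to 5.501 on the 6 untreated ones. These ranges do not overlap, so the covariate can hardly be told apart from culture, and loss of calls against untreated tissue decides nothing. The sheath marker JKD fell as well, by 0.93 (adjusted p 0.0334), and stood at -0.15 (0.972) without the compressed arrays. The number of calls ran from 1 without 2-day NAA replicate 2 to 13 without untreated sheath replicate 1.

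The 5-day cambium was compared with the untreated sheath, the layer it forms in, and 6 of 45 genes fell and 0 rose. All probe sets had 2.58% lower calls and 8.58% in either direction. The falls were -2.54 ± 0.604 for psbI (adjusted p 0.0121), -1.81 ± 0.409 for psbC (0.0087) and -1.73 ± 0.369 for atpF (0.00606). They were -1.59 ± 0.381 for psbL (0.0129), -1.20 ± 0.359 for ndhJ (0.0443) and -0.59 ± 0.177 for petD (0.0454), all by limma with n = 3 arrays each. In all, 43 of 45 genes had a negative difference, with a median of -0.49 against -0.08 over all probe sets, and 12 lay lower without overlap (26.7%, against 8.73%) and 0 higher (against 10.1%). Without the 3 compressed arrays 1 untreated sheath array is left, the highest of its group for psbL, atpF and ndhJ. The median was then -0.53. The differences were -3.22 for psbI, -3.04 for atpF, -2.44 for psbL, -2.19 for ndhJ, -1.92 for psbC and -0.64 for petD. Without 1 array at a time, the count of calls ran from 1 without cambium replicate 2 to 13 without untreated sheath replicate 1. The call in atpF passed in each of these 6 fits. The call in ndhJ was lost in 5 of them, petD in 4, psbI and psbL in 2 each and psbC in 1. With the GAPDH covariate 0 of the 6 passed, at -2.62 for psbI, -2.25 for psbL, -2.03 for atpF, -1.40 for ndhJ, -0.59 for psbC and -0.15 for petD. As above, that covariate can hardly be told apart from culture, so these losses decide nothing. Of the tissue markers, JKD of the sheath fell by 0.89 in the same comparison (adjusted p 0.0467) and MOL1, the 1 of 4 listed cambium markers matched to a probe set, rose by 1.73 (0.0474). Without the compressed arrays they stood at -0.11 (0.929) and +1.68 (0.303), and the part of tissue make-up in the falls was not tested.

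Culture without NAA moved some of the same genes. After 2 days on medium psbC fell by 1.56 on the log2 scale (adjusted p 0.0317) and atpF by 1.57 (0.0167), 2 of 45 genes, against 0.967% lower calls and 4.94% in either direction among all probe sets. After 5 days on medium psbC fell by 1.96 (0.00775), psbL by 1.46 (0.0284) and atpF by 1.78 (0.0077), 3 of 45, against 2.02% lower and 6.34% in either direction. These comparisons share the untreated sheath arrays with those on NAA. Without the 3 compressed arrays 7 genes were called at 2 days, atpF but not psbC (-1.67, adjusted p 0.106) among them, and 9 at 5 days, psbC, psbL and atpF included. The count at 2 days ran from 0 without medium replicate 1 or 2 to 5 without untreated sheath replicate 1. At 5 days it ran from 2 without any 1 of the medium arrays to 8 without untreated sheath replicate 1, and psbL was lost in 5 of 6 such fits. With the GAPDH covariate 0 of these 5 calls passed, at -0.06 for psbC and -1.94 for atpF at 2 days and at -1.18 for psbC, -1.88 for psbL and -1.97 for atpF at 5 days. Here too the covariate separates cultured from untreated arrays, so these losses decide nothing. The sheath marker JKD stood at -0.94 at 2 days (adjusted p 0.0505) and fell by 1.15 at 5 days (0.0165), and without the compressed arrays it stood at -0.17 (0.862) and -0.37 (0.66). The phloem marker CLE44 stood at -2.02 at 5 days (0.0674) and, without those arrays, at -2.99 (0.0453). Their part in the falls was not tested. Between 5 and 2 days on medium 0 of 45 genes were called by limma (6 at an unadjusted p under 0.05), against 0.303% of all probe sets.

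Between the 5-day cambium and the 2-day sheath, both on NAA, psbI alone was called. It fell by 2.75 ± 0.604 on the log2 scale (adjusted p 0.0206), 1 of 45 genes, against 0.835% lower calls and 2.02% in either direction among all probe sets. Lower without overlap were 12 genes (26.7%, against 8.85% of all probe sets) and higher 1, ndhF, by 0.19 (against 9.11%). Among them were atpB at -2.90 (adjusted p 0.0702), psbA at -2.63, psaB at -2.46 (0.108) and atpE at -2.40 (0.101), none of which passed. The call in psbI was lost in 4 of 6 fits without 1 array (without 2-day NAA replicate 1 or 3, or cambium replicate 2 or 3, adjusted p up to 0.114).

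**Figure D4:**
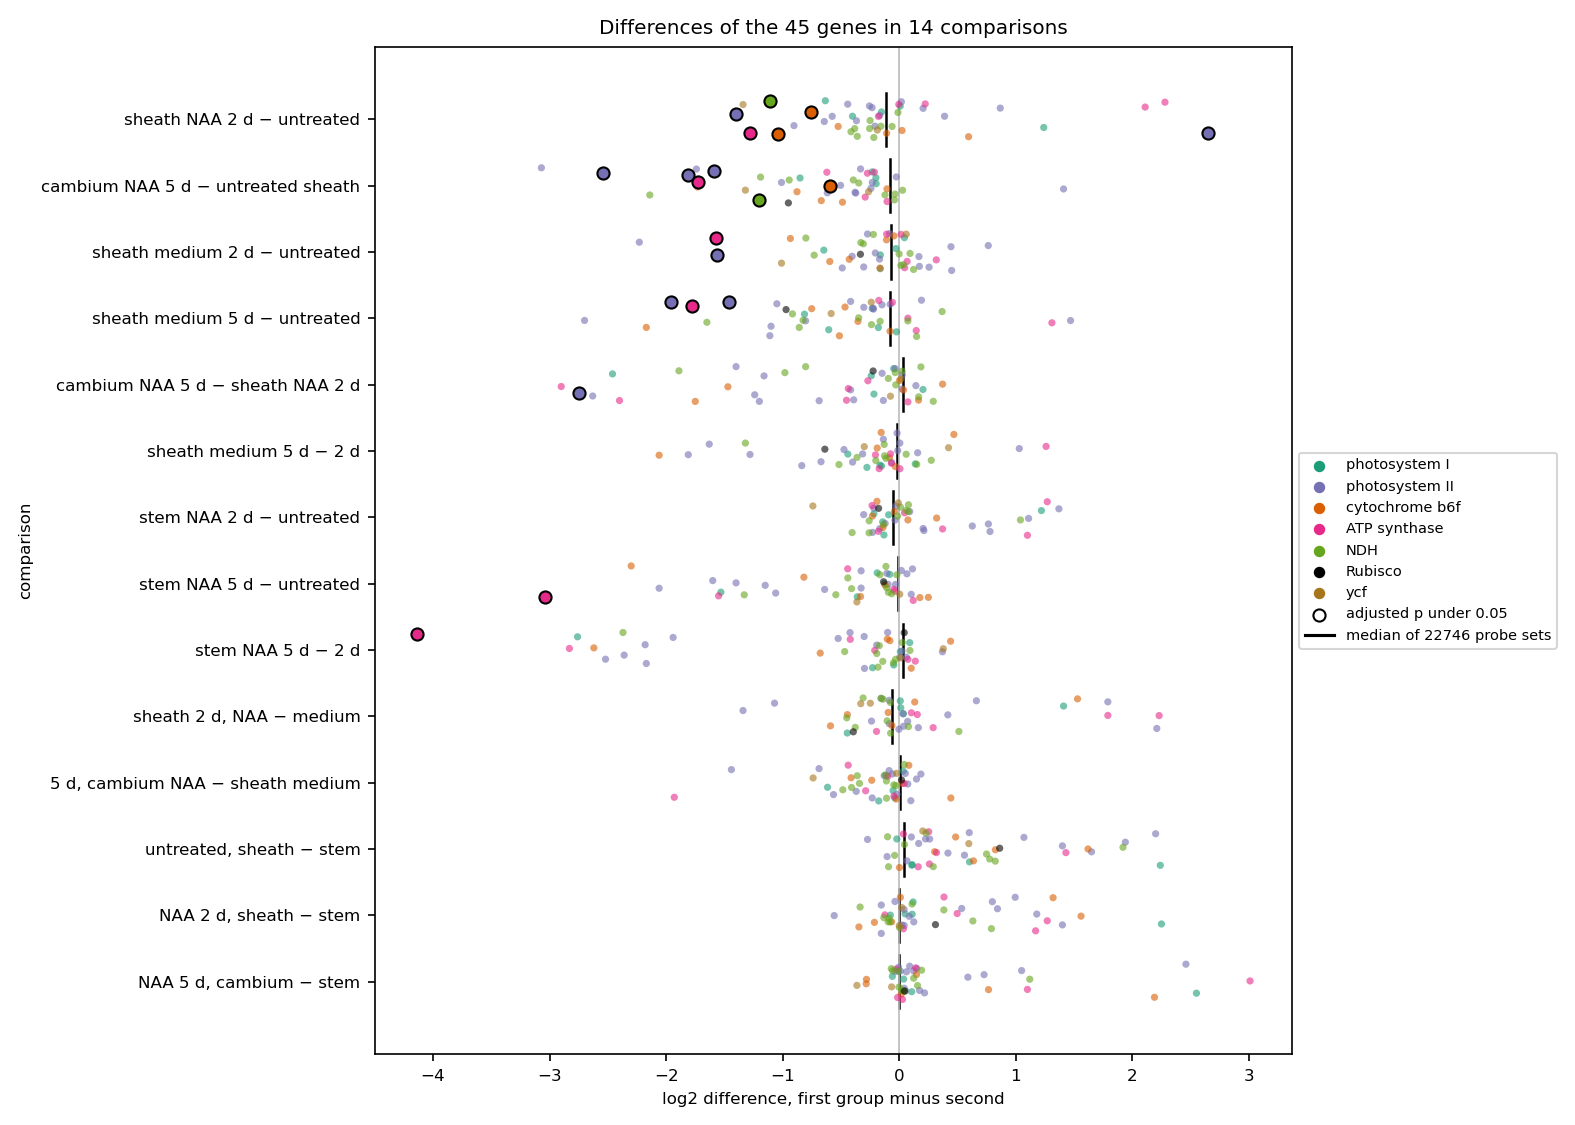
Log2 difference of each of the 45 genes in 14 comparisons, first group minus second, coloured by complex, with a black ring at an adjusted p under 0.05 and a black line at the median of all 22746 probe sets. The ringed points lie left of 0 except psbJ in sheath after 2 days on NAA, and the farthest is atpE in stem at 5 against 2 days (-4.14).

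NAA was compared with medium alone at the same time, within sheath at 2 days and as cambium against sheath at 5 days. At 5 days NAA and the named tissue cannot be told apart. At 2 days 0 of 45 genes were called by limma (6 at an unadjusted p under 0.05), against 0.382% of all probe sets. The arrays did not overlap in 14 genes, of which 4 were higher on NAA (psaB, psbJ, psbM and atpE) and 10 lower (22.2%, against 13.4% of all probe sets lower and 9% higher). The sizes were +2.21 ± 0.764 for psbJ (adjusted p 0.275) and +1.79 ± 0.718 for atpE (0.379). Among those lower on NAA they were -1.34 ± 0.69 for psbF (0.54), -1.07 ± 0.381 for psbL (0.297) and -0.59 ± 0.177 for petD (0.193), and -0.09 to -0.45 for psaA, psbD, petN, ndhG, ndhH, ycf3 and ycf4. With the GAPDH covariate 6 genes were called, 3 in each direction. At 5 days 0 of 45 were called in cambium against sheath on medium (3 at an unadjusted p under 0.05), against 3.49% of all probe sets.

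The 2 times were then set against each other, as the difference between NAA and medium at 5 days minus that at 2 days. The 5-day part again sets cambium against sheath. No gene of the 45 was called (3 at an unadjusted p under 0.05), against 1.01% of all probe sets. The largest difference was in atpB, with +2.23 ± 0.8 on NAA at 2 days, -1.93 ± 0.8 at 5 days and -4.16 ± 1.13 between the times (adjusted p 0.0874, limma). Without 2-day NAA replicate 1 there was 1 call.

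Sheath and cambium were compared with stem at each time. Before culture 0 of 45 genes were called by limma (9 at an unadjusted p under 0.05), against 0.202% of all probe sets. The difference was positive in 39 of 45, with a median of 0.30 against 0.04 over all probe sets, and the arrays did not overlap in 6 genes, all higher in sheath (13.3%, against 4.08% higher and 3.06% lower of all probe sets). The closest to a call were psbC at +1.94 ± 0.409 (adjusted p 0.0611) and psbL at +1.65 ± 0.381 (0.0888), and psaB stood at +2.24 ± 0.748 (0.237). Without untreated sheath replicate 1 there were 6 calls, and without the 3 compressed arrays 8, all higher in sheath and all resting on 1 sheath array.

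At 2 days on NAA 0 of 45 genes were called (5 at an unadjusted p under 0.05, limma), against 0.246% of all probe sets. At 5 days 0 were called (4 at an unadjusted p under 0.05), against 0.356%, and 1 was without cambium replicate 2. At that time 6 genes lay higher in cambium without overlap (13.3%, against 5.46% of all probe sets) and 0 lower (5.39% of all probe sets). The 6 were atpE, psbJ, petA, atpB, psbF and psaJ. The sizes were +3.01 ± 0.718 for atpE (adjusted p 0.0936) and +2.55 for psaB (0.259), whose arrays overlapped. The change in the difference between the tissues from before culture gave 0 calls at 2 days (1 at an unadjusted p under 0.05), against 0.00879% of all probe sets, and 0 at 5 days (6), against 0.0308%.

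Pairs of genes from 1 transcription unit did not have a higher median correlation than pairs from different units, and the difference was not tested. Over the 24 arrays, which share their groups, the 18 pairs from the same unit among the 28 brighter genes had a median Pearson r of 0.34 (-0.19 to 0.855), and the 360 pairs from different units one of 0.4 (-0.682 to 0.915). Close neighbours in the gene order ranged widely. The r was 0.855 for atpB and atpE and 0.833 for psbF and psbL, but 0.101 for psbL and psbJ, -0.0766 for psaA and psaB and -0.19 for petB and petD. The highest was between genes of different units, psaC and atpF (0.915). These values are descriptions, many pairs share a gene, and the 45 probe sets also share array depth and compression. The highest group means of psaA, petD and psaC were 3.46, 3.33 and 3.23, near the median of all values (3.09). This limits what their r can show.

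Among 13468 named genes outside the set, those most like the median course of the 45 genes over the 24 arrays were AT3G17950 (Pearson r 0.821), the plastid ribosomal protein gene rpl14 (0.786), the mitochondrial NADH dehydrogenase gene nad4 (0.784), AT1G49110 (0.772) and AT3G25580 (0.763). The group means of AT3G17950 spanned 2.67 to 3.31, so that this likeness is among low signals. The median course itself went with properties of the arrays. Its r was -0.657 with the SD over all probe sets, 0.575 with the array median and -0.552 with the GAPDH 3' minus 5' signal. The part of these in the likeness was not tested.

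The nucleus encodes the other subunits of the same complexes and proteins that work with them. Of a list of 64 such genes, 13 were matched to a probe set naming 1 gene. In stem after 5 days on NAA, where atpE was low, 6 of these 13 fell against untreated stem and 0 rose, against 1.63% of all probe sets lower and 4% in either direction. The 4 with the smallest p were PSAN at -2.72 ± 0.517 (adjusted p 0.00452) and PSAE-1 at -1.99 ± 0.43 (0.0117), both small subunits of photosystem I, RCA at -1.93 ± 0.388 (0.00694), which activates Rubisco, and ATPC1 at -1.23 ± 0.275 (0.0142), the gamma subunit of the ATP synthase. Against 2 days, ATPC1 fell by 1.53 ± 0.275 (0.00748) and RCA fell by 1.86 ± 0.388 (0.0233), against 0.339% of all probe sets lower. In cambium against 2-day sheath on NAA, 3 of 13 fell: ATPC1 by 1.92 (0.000604), RCA by 2.03 (0.00721) and PSBY of photosystem II by 1.17 (0.021), against 0.835% of all probe sets lower.

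With NAA against medium at 5 days 4 of the 13 nuclear genes fell (ATPC1 -2.20, RCA -2.05, PSAE-1 -1.66, PSBY -0.95) and the antenna protein LHCB4.3 rose by 1.57 (adjusted p 9.5e-05 to 0.0479), where 0 of the 45 plastid genes were called and 3.49% of all probe sets were. At 2 days ATPC1 stood at +0.54 and RCA at +0.37, neither of which passed (0.537 and 0.792), and the difference between the times was -2.74 ± 0.389 for ATPC1 (0.00148) and -2.42 ± 0.549 for RCA (0.039). The 5-day comparison sets cambium against sheath, and whether nuclear and plastid genes differ in it was not tested. In the sheath after 2 days on NAA, ATPC1 (+1.38, 0.00361) and PETM (+2.28, 0.0479) rose against untreated sheath, 2 of 13, against 7.47% of all probe sets higher. After 5 days on medium ATPC1 rose by 1.66 (0.00151) and LHCB4.3 fell by 1.18 (0.0289) against untreated sheath. That is 2 of 13, against 6.34% of all probe sets in either direction. Of lists of nuclear regulators, 1 of 17 plastid transcription genes was matched to a probe set, with no call, and 1 of 13 greening genes, PORB of chlorophyll synthesis. PORB rose after 5 days on medium (+1.43, adjusted p 0.041), in the comparison with 6.34% of all probe sets called.

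The other plastid genes with a probe set of their own, 24 in number, encode ribosomal proteins, RNA polymerase subunits and a few enzymes. Against untreated sheath 4 of 24 rose after 2 days on NAA and 0 fell, against 7.47% higher and 4.28% lower of all probe sets: rps3 by 2.35 (adjusted p 0.0468), rpl16 by 1.69 (0.00962), rpoA by 1.59 (0.0408) and rps19 by 1.50 (0.013). In cambium 3 of 24 fell, rpl14 and accD by 0.66 each and rpl32 by 0.56 (0.0245 to 0.0467), against 2.58% of all probe sets. After 5 days on medium rpl14 (-0.66, 0.0381) and accD (-0.65, 0.0356) fell, 2 of 24 against 2.02%. Against 2-day NAA sheath, cambium had 2 of 24 lower, rpl16 at -1.97 (0.00949) and rps19 at -1.83 (0.00956), against 0.835%. In stem rps19 rose by 1.38 at 2 days (0.0429), 1 of 24 against 3.23% in either direction, and at 5 days it fell by 1.66 against 2 days (0.0316), 1 of 24 against 0.339% lower, the comparison in which atpE fell.

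Mitochondrial genes, which share with plastid genes the absence of a stable poly(A) tail, served as a second set of organelle transcripts. Of 22 probe sets, 3 fell in sheath after 2 days on NAA (nad4 and both probe sets of nad5), 3 in cambium (nad1 and both of nad5), 2 after 2 days on medium (nad5) and 4 after 5 days on medium (nad7, nad4, nad5), all against untreated sheath. Lower calls made up 4.28%, 2.58%, 0.967% and 2.02% of all probe sets in these 4 comparisons. The sizes were -0.92 to -2.06 on the log2 scale. No mitochondrial probe set rose there. In stem at 5 against 2 days 0 of 22 were called by limma (4 at an unadjusted p under 0.05), against 0.857% of all probe sets. Against untreated stem 0 were called at 5 days (3 at an unadjusted p under 0.05), against 4%, and 0 at 2 days, against 3.23%. The medians of this list were -0.21, -0.35, -0.26 and -0.30 in the 4 comparisons with untreated sheath, against -0.22, -0.49, -0.16 and -0.35 for the 45 plastid photosynthesis genes.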

How the data were processed

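The deposited table holds log2 values for 22810 probe sets on 24 arrays, which the authors made with RMA, and limma is also named, per the submitters' processing notes, with no version given. The log base is not written in the table and was taken from the values. Each group has 3 arrays, and their number limits the precision. After 64 control probe sets were left out, limma 3.58.1 in R 4.3.3 fitted 1 mean per group over all 24 arrays and 17 contrasts, with Benjamini-Hochberg adjustment over 22746 probe sets and a threshold of 0.05. The fit was tested on simulated data. Probe sets took their genes from the platform annotation: 13513 name 1 gene, 503 several and 8730 none. All of the 45 genes were tested, with no filter on low values. The genes, the comparison lists and the tests were chosen with earlier results of these data known. Genes named with a value on every array were, by rule, the one with the smallest F-test p in each complex and those called in a pairwise comparison. The alternatives were other scalings, array weights, a covariate, a replicate block, fewer arrays and a filter on dim probe sets. Same-numbered arrays deviated together, with every correlation over 0.1, in 1 of 14 comparisons, sheath against stem at 2 days on NAA, where 0 genes were called with or without the block. No sequences are printed, since none were at hand.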

Additional observations from a re-analysis of the deposited data

How the results depend on the processing

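Of 620 repeats of single calls under another setting or without 1 array, 484 kept the call, 133 lost it and 3 changed direction. The reversals were psbJ with the GAPDH covariate (-0.53) and ndhH with it (+0.3) and without the 3 compressed arrays (+0.16), all for sheath after 2 days on NAA against untreated sheath. None of the 56 medians by complex and group moved by more than 1 SD under quantile normalization. The cause of the changed counts that follow was not tested, beyond the fewer arrays that some settings use.

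With the GAPDH covariate the number of genes called was 0 in each of the 4 comparisons with untreated sheath, 6 for NAA at 2 days, 3 each in 5-day stem against untreated stem, 5-day against 2-day stem and cambium against 2-day NAA sheath, 2 each in cambium against stem and in NAA by time, and 1 in medium at 5 against 2 days. It also moved the median of all probe sets in cambium against untreated sheath to 0.07 (main -0.08), and that of the 45 genes to -0.15 (main -0.49). In comparisons with untreated tissue the covariate can hardly be told apart from culture.

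With array weights 27 genes differed over the groups. Against untreated sheath 11 were called after 2 days on NAA, 15 in cambium, and 4 and 7 after 2 and 5 days on medium. Stem had 2 at 2 days, 15 at 5 days and 9 between them. Cambium against 2-day NAA sheath had 6, and medium at 5 against 2 days 1. Sheath or cambium against stem had 10 before culture and 4 at 5 days, its change had 4 at 2 days and 10 at 5 days, and NAA at 5 days had 2 and NAA by time 1.

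Cyclic loess gave 1 call each for NAA at 5 days, NAA by time, and sheath against stem before culture and at 5 days, 5 for medium at 5 days against untreated, 2 for 5-day against untreated stem and 3 for cambium against 2-day NAA sheath. Quantile normalization gave 1 for NAA at 5 days, 4 and 1 for sheath against stem before culture and at 5 days, 2 for 5-day against untreated stem and 0 for cambium against 2-day NAA sheath. With an intensity trend and robust prior there was 1 for NAA at 5 days. That setting and the one without dim probe sets each gave 1 for sheath against stem before culture and 2 each for 5-day against untreated stem and cambium against 2-day NAA sheath.

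Fitting only the arrays compared left 0 calls against untreated sheath, except 1 for medium at 5 days, 0 for cambium against 2-day NAA sheath, 2 for 5-day against untreated stem and 6 for 5-day against 2-day stem. Without the 3 compressed arrays the counts were 10, 7 and 9 for cambium and for 2 and 5 days on medium against untreated sheath, 8 and 1 for sheath against stem before culture and at 5 days, 2 and 3 for its change at 2 and 5 days, 5 for cambium against 2-day NAA sheath, 3 for 5-day against 2-day stem, and 1 each for medium at 5 against 2 days and NAA by time.

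Without 1 array at a time, the counts ran from 6 to 14 over the groups and, against untreated sheath, from 1 to 13 both after 2 days on NAA and in cambium, 0 to 5 and 2 to 8 on medium at 2 and 5 days. For sheath or cambium against stem they ran from 0 to 6 before culture and 0 to 1 at 5 days, and for its change 0 to 1 at 2 days and 0 to 4 at 5 days. They ran from 0 to 3 for 5-day against untreated stem, and 0 to 1 for cambium against 2-day NAA sheath and for NAA by time. The replicate block left all 18 counts as they were, but in cambium against untreated sheath the 6 calls then held psaC (adjusted p 0.0453) and no longer petD. Signals near the median of all values (3.09) limit what could be seen for the 17 dim genes.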
